A study of Rattus norvegicus with 15 samples.

Results

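The genes of sterol and fatty acid synthesis were followed in cultured rat spermatogonial stem cells, the stem cells of the male germline, when glial cell line-derived neurotrophic factor (GDNF) was taken away and given back. The list held 35 genes for the steps of the mevalonate and cholesterol pathway, the SREBP proteins that control it, sterol transport and fatty acid synthesis. Of these, 34 had a probe set annotated with that single gene symbol, and 32 had an intensity of at least 16 on 3 or more arrays and were tested, among 9002 named genes tested in the series. Hmgcs1 is not analysed here for want of such a probe set, and Tm7sf2 and Scd stayed below 16 on all 15 arrays, with highest intensities of 9.61 and 8.12. Just inside the level was Nr1h3, which reached 16 on the 3 control arrays alone. The other 31 genes were over it on every array.

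Cholesterol is built from acetyl-CoA through mevalonate, isoprenoids, squalene and lanosterol. The transcription factors SREBP-1 and SREBP-2 switch on the enzymes of this route and of fatty acid synthesis. With their escort SCAP they are held in the endoplasmic reticulum by the INSIG proteins while sterols are plentiful. LXR receptors, which sense oxidized sterols, switch on genes of sterol export. Germ cells, like other dividing cells, need cholesterol and fatty acids for new membrane.

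Arrays came from cells deprived of GDNF for 18 h (withdrawal), from cells deprived for 18 h and then given GDNF for 2, 4 or 8 h, and from cells kept with GDNF throughout (control). Before treatment the cells of all 5 groups had spent 1 month in culture with GDNF and no serum, and each group had 3 arrays, 1 per independent culture. As cells kept without GDNF for the added 2, 4 or 8 h are not analysed here, longer time since withdrawal and renewed GDNF cannot be told apart. Of 16 germ cell markers 7 were tested, and 10 had a probe set annotated with that symbol alone. The receptor gene Ret had intensities of 1892 to 4475 over the arrays, Uchl1 5113 to 5739, Epcam 7135 to 11239 and Tex101 6122 to 7967, whereas the GDNF co-receptor gene Gfra1 (at most 12.7), Nanos3 (at most 15.5) and Lin28a (at most 17.9) did not pass the low-value level. In such bulk RNA, fewer cells of a type and less RNA per cell cannot be told apart. Of other cell types, 13 of 18 mesenchymal markers passed the low-value level, against 1 of 11 Leydig or peritubular markers and 1 of 12 immune or blood markers, and 6 of 12 Sertoli markers. Averaged over the 13 mesenchymal markers, log2 intensity was 8.13 to 8.93 after withdrawal, 8.02 to 8.29 at 2 h, 8.17 to 8.67 at 4 h, 8.74 to 9.02 at 8 h and 8.58 to 9.0 in the control. Over the 6 Sertoli markers tested it was 7.84 to 7.95 after withdrawal, 7.86 to 7.90 at 2 h, 7.90 to 8.04 at 4 h, 7.85 to 7.93 at 8 h and 8.19 to 8.24 in the control. The control arrays thus stood above all others for the Sertoli list, and the part of this in the changes against the control was not tested. Of these markers Dhh (15.3 to 66.9, median 15.8) and Wt1 (15.2 to 43.0, median 20.8) lay near the low-value level. Dhh was under 16 on most arrays and passed through a few higher ones, and its share in that gap was not tested. Within groups none of the 32 genes followed the mesenchymal mean past the threshold by limma, against 2.77% of all tested probe sets, so this count is near the background. Nearest to the threshold was Insig2 (slope 0.50, adjusted p = 0.0543). As a sign of RNA quality, the GAPDH control set of the 3′ end minus that of the 5′ end was, in log2 units, -0.154 to -0.0966 after withdrawal, -0.273 to -0.252 at 2 h, -0.175 to -0.123 at 4 h, -0.174 to -0.132 at 8 h and -0.205 to -0.185 in the control. The same difference for the hexokinase controls was 2.39 to 2.45, 2.12 to 2.32, 2.14 to 2.27 and 2.21 to 2.5 in the same order of groups and 2.45 to 2.55 in the control, and for beta-actin it was 2.17 to 2.24, 1.97 to 2.12, 2.01 to 2.23 and 1.98 to 2.16, and 1.93 to 2.09 in the control. The part of these values in the results was not tested.

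The promoters of the 4 genes with the largest rise at 2 h of GDNF return that had an entry in the RefSeq table of build GRCr8 are shown because the largest changes on return were theirs. Each runs over the 250 bases before the gene's start, 5′ to 3′ on the gene's strand. Capitals mark CCAAT (the box bound by NF-Y, a partner of SREBP), GGGCGG (the GC box bound by SP1) and CACGTG (an E-box), on either strand.
Idi1, chr17:66547525-66547774, minus strand: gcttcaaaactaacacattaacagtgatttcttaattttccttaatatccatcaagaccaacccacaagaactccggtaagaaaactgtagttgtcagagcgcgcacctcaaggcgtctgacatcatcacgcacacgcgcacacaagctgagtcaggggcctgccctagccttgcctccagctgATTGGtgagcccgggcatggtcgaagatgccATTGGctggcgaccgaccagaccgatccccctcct
Sc5d, chr8:51538278-51538527, minus strand: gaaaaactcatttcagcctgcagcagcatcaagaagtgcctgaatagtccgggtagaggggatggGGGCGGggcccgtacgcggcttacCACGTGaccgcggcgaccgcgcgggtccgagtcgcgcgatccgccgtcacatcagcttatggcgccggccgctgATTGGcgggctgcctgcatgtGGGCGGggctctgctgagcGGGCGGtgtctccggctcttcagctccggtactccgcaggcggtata
Msmo1, chr16:29746863-29747112, plus strand: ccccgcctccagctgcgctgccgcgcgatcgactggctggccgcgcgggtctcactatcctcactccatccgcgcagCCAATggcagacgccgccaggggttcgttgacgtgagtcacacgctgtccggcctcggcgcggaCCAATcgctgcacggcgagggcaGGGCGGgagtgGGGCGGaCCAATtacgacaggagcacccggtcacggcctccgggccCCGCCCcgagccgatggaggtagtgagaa
Insig1, chr4:8057770-8058019, minus strand: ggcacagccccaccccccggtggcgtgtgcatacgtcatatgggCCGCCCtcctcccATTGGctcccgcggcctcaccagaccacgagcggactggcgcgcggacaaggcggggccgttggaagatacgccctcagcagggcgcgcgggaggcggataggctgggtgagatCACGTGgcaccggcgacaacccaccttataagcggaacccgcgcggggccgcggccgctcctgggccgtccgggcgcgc
The Msmo1 promoter held 3 CCAAT and 3 GGGCGG matches and that of Sc5d 1 and 3. For Insig1 there was 1 of each, and for Idi1 there were 2 CCAAT matches and no GGGCGG match. The Sc5d and Insig1 promoters each held 1 CACGTG. RefSeq entries were found for 25 of the 32 genes. Over the whole window, 250 bases before to 50 after the start, CCAAT on either strand was in 18 of the 25 (72%), against 37.5% of all 33469 promoters. It was in 8 of the 9 that rose at 2 h (88.9%) and in 10 of the 16 that did not (62.5%). GGGCGG was in 20 (80%), against 33.1% of all. It was in 7 of the 9 that rose at 2 h (77.8%) and in 13 of the 16 that did not (81.2%). CACGTG was in 4 (Scap, Abca1, Sc5d and Insig1), or 16%, against 6.42%. The letters TCACNCCAC of a sterol regulatory element were in 0 of the 25 and in 1.12% of all promoters, so this count is near the background. Only exact matches were searched, so an element with other letters would be missed. The LXR element, a pair of AGGTCA repeats in the same direction 4 bases apart, was in 0 of the 25 and in 2 promoters of the table. Of the EGR sites, GCGGGGGCG was in 0 of the 25 (2.73% of all) and GCGTGGGCG, which shares bases with a GGGCGG match, in the Dhcr7 promoter alone of the 25 (0.544% of all).

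Over the 5 groups 24 of the 32 genes differed by limma's F test (adjusted p under 0.05), as did 49.6% of all tested probe sets. The 24 include Nr1h3, whose difference was built in by the low-value level, as described with its values. Group means on the log2 scale were highest at 2 h for 10 genes, of which 7 belong to the steps from squalene to cholesterol, and highest at 4 h for another 10, of which 4 are mevalonate genes and 3 fatty acid genes. They were lowest at 8 h for 19. No gene had its highest mean at 8 h. No fatty acid gene had its highest mean at 2 h. The counts of highest and lowest means include genes not past the F test. Among those highest at 4 h these were Mvk, Pmvk, Nsdhl, Srebf1 and Fasn. Among those lowest at 8 h they were Mvk, Pmvk, Mvd, Srebf1, Fasn, Fads1 and Fads2. The same counts over all tested probe sets were not taken, so these have no background beside them.

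**Figure D1:**
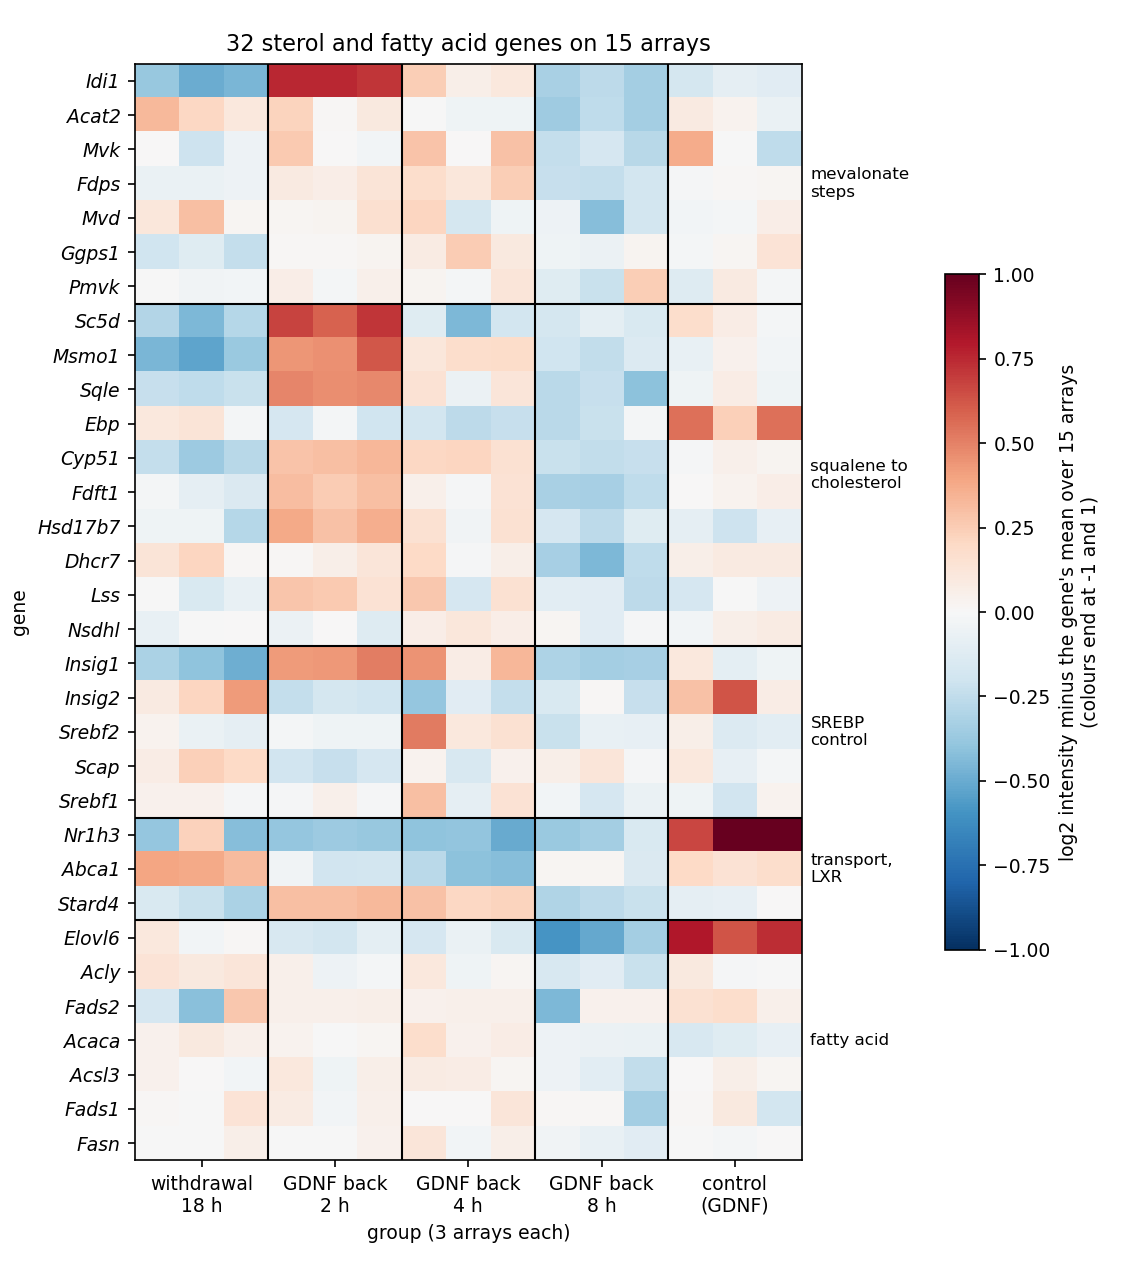
Heat map of the 32 tested genes (rows, by role) on the 15 arrays (columns, 3 per group), as log2 intensity minus the gene's own mean over the arrays. Idi1, Msmo1, Sqle, Cyp51, Insig1 and Stard4 are red on the 2 h arrays and blue after withdrawal and at 8 h, Abca1 is red after withdrawal and blue at 2 h and 4 h, and Elovl6 is reddest in the control. Colours stop at 1 log2 unit either way.

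In the mevalonate part of the route, Idi1 changed most. It encodes isopentenyl-diphosphate isomerase, which interconverts the isoprenoid building blocks. Idi1 intensities were 2659.7, 2448 and 2522 after withdrawal, 5818, 5841 and 5665 at 2 h, 4104, 3607 and 3726 at 4 h, 2766, 2879.9 and 2728 at 8 h, and 3054, 3247 and 3194 in the control. The 2 h arrays lay above those of every other group, the 4 h arrays above the remaining groups, and the 8 h arrays between withdrawal and the control. At 2 h Idi1 averaged 5775 ± 95.8, against 2543 ± 107 after withdrawal (SD, n = 3 in each group), a 2.27-fold rise (log2 change 1.18 ± 0.05, adjusted p = 5.43e-10, limma, ± SE). Its other probe set rose as well, by 1.23 on the log2 scale. Fdps, the farnesyl diphosphate synthase gene, had intensities of 4021, 4014 and 4075 after withdrawal, 4478, 4415 and 4617 at 2 h, 4765, 4562 and 4992 at 4 h, 3587, 3577 and 3701 at 8 h, and 4182, 4239.7 and 4269 in the control. The 2 h and 4 h arrays overlapped each other and lay above all others, and the 8 h arrays lay below all others. Fdps rose 1.18-fold at 4 h over withdrawal and stood 1.11-fold lower at 8 h (adjusted p = 0.000104 and 0.00403).

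Ggps1, whose enzyme makes geranylgeranyl diphosphate for protein prenylation, had 477, 503 and 466 after withdrawal, 553, 554 and 559 at 2 h, 580.4, 653 and 587 at 4 h, 532, 526 and 559 at 8 h, and 541, 555 and 603 in the control. All withdrawal arrays lay below those of every other group. The annotation gives Ggps1 another 2 tested probe sets, whose log2 changes at 2 h were 0.02 and 0.23, neither past the threshold (adjusted p = 0.91 and 0.218). Acat2, the cytosolic acetoacetyl-CoA thiolase that starts the route, had 761, 704 and 656 after withdrawal, 709, 614 and 650.3 at 2 h, 605, 591 and 592 at 4 h, 476, 510.0 and 482 at 8 h, and 648, 623 and 582 in the control. Its 8 h arrays lay below all others and its highest mean was after withdrawal, where the arrays overlapped those of 2 h. Acat2 stood 1.44-fold lower at 8 h than after withdrawal (adjusted p = 3.5e-05), while its log2 change at 2 h was -0.10 (adjusted p = 0.263). The kinase genes Mvk and Pmvk ranged over 78.9 to 124 and 113 to 156 and the decarboxylase gene Mvd over 119 to 197, and none of the 3 was past the F test.

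Between squalene and cholesterol the methyl sterol oxidase gene Msmo1 showed the clearest order of the groups. Its intensities were 1114, 1060.4 and 1182 after withdrawal, 2078, 2104 and 2349.5 at 2 h, 1655, 1729 and 1737 at 4 h, 1333, 1290.5 and 1388 at 8 h, and 1450.2, 1576 and 1501 in the control. The 5 groups did not overlap, with withdrawal lowest, then 8 h, the control, 4 h and 2 h. At 2 h Msmo1 averaged 2177 ± 149.9, against 1119 ± 60.8 after withdrawal (SD, n = 3), a 1.95-fold rise (log2 change 0.96 ± 0.05, adjusted p = 1.85e-08, limma). Sc5d, the lathosterol oxidase gene of a late step, had 207, 186 and 209 after withdrawal, 406, 383 and 417 at 2 h, 234, 186 and 224 at 4 h, 225, 238 and 229 at 8 h, and 287, 269 and 251 in the control. The 2 h arrays lay above all others while the 4 h arrays already overlapped those of withdrawal. Sc5d was 2.00-fold higher at 2 h (adjusted p = 1.33e-06) as were both of its further probe sets, by 1.05 and 0.86 on the log2 scale. At 4 h its log2 change from withdrawal was 0.09 (adjusted p = 0.446).

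Sqle encodes squalene epoxidase, a rate-limiting step of the sterol branch. It had intensities of 1400.2, 1377 and 1403 after withdrawal, 2295, 2261 and 2282 at 2 h, 1807, 1569.7 and 1782 at 4 h, 1359, 1395 and 1229.9 at 8 h, and 1591, 1725 and 1589.8 in the control. The 2 h arrays stood above all others, and the withdrawal and 8 h arrays overlapped and lay below the control. Sqle rose 1.64-fold at 2 h (log2 change 0.71 ± 0.06, adjusted p = 8.14e-07, limma) and was 1.72-fold lower at 8 h than at 2 h (adjusted p = 2.55e-07). Cyp51, the lanosterol demethylase gene, had 1377, 1263 and 1338 after withdrawal, 1982, 2001 and 2044 at 2 h, 1877, 1879.6 and 1806 at 4 h, 1391, 1369.9 and 1383 at 8 h, and 1610.1, 1681 and 1655 in the control. Here the 2 h and 4 h arrays lay above the control, and the withdrawal and 8 h arrays below it. Cyp51 rose 1.52-fold at 2 h and was still 1.40-fold above withdrawal at 4 h (adjusted p = 6.4e-08 and 2.58e-07). This probe set can also read other transcripts. The other Cyp51 probe set rose by 0.38 at 2 h and 0.44 at 4 h from withdrawal on the log2 scale, but had no call against the control, where its log2 changes were -0.26 after withdrawal, 0.12 at 2 h, 0.18 at 4 h and -0.19 at 8 h (adjusted p = 0.0706, 0.432, 0.207 and 0.244).

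Other genes of this stretch rose at 2 h by smaller amounts. Fdft1, the squalene synthase gene, averaged 1532 ± 30.1 at 2 h, against 1182 ± 49.1 after withdrawal and 1286 ± 29.6 in the control (SD, n = 3), and its 2 h arrays lay above all others. Hsd17b7, for a 3-ketosteroid reductase, was at 1322 ± 41.7 at 2 h, against 960.2 ± 92.3 after withdrawal and 955 ± 45.0 in the control. They rose 1.30-fold and 1.38-fold (adjusted p = 5.46e-05 and 0.000282). Dhcr7, whose enzyme carries out a last step to cholesterol, had a mean of 882 ± 60.1 at 8 h, 1215 ± 85.4 after withdrawal and 1181 ± 17.0 in the control. Its log2 change at 2 h was -0.05 (adjusted p = 0.581), and it was 1.38-fold lower at 8 h than after withdrawal (adjusted p = 0.000115). Ebp, the sterol isomerase gene, had 85.0, 86.4 and 78.0 after withdrawal, 70.2, 78.0 and 68.9 at 2 h, 69.6, 65.7 and 67.4 at 4 h, 65.3, 67.8 and 78.0 at 8 h, and 116, 93.3 and 115 in the control. The control arrays lay above all others for Ebp, and it stood 1.53-fold lower at 8 h than in the control (adjusted p = 0.00105). Nsdhl, a sterol dehydrogenase gene, ranged over 389 to 460.0 and was not past the F test (its other probe set was past the threshold at 4 h, with a log2 change of 0.31 and adjusted p = 0.00766).

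**Figure D2:**
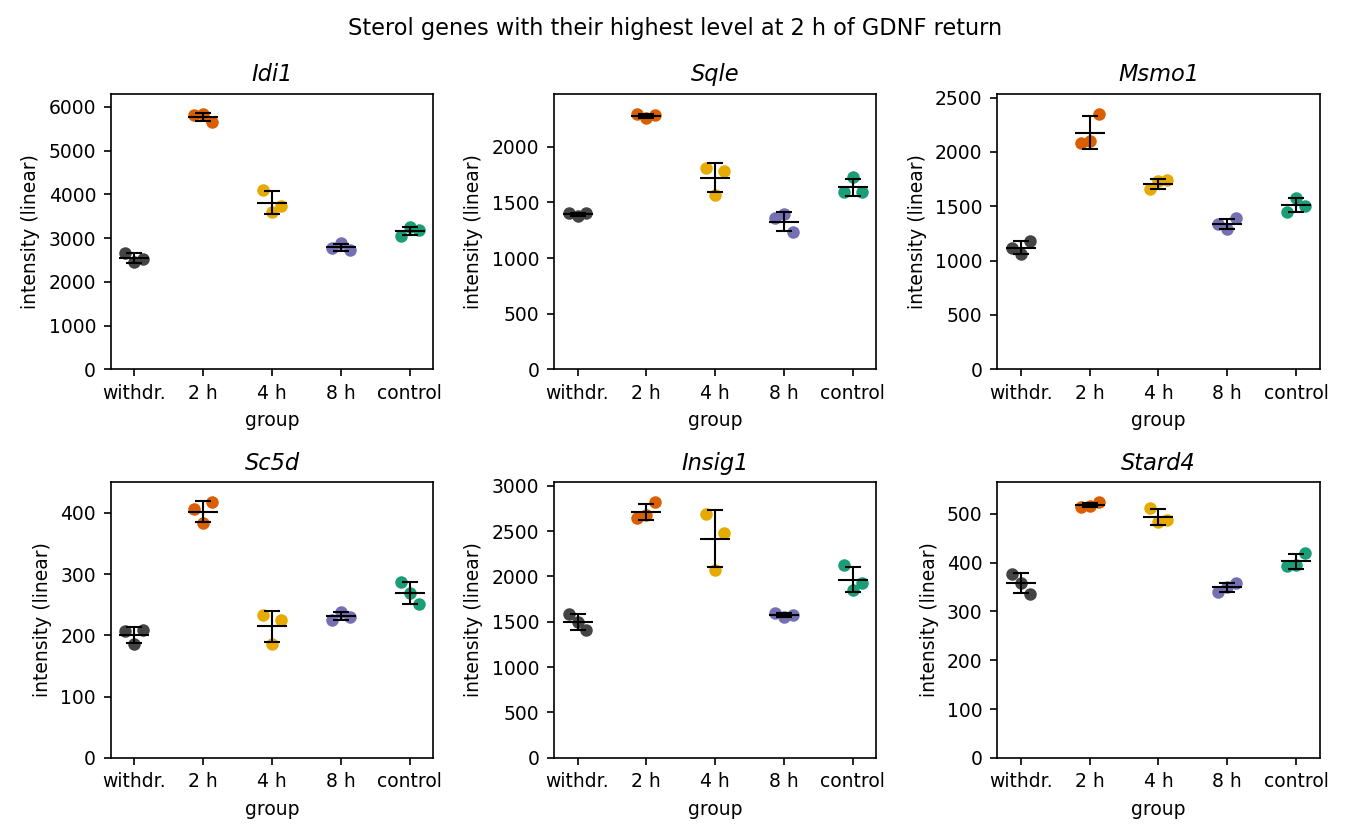
Intensity (linear scale) of 6 sterol genes on each array (coloured points), by group, with the group mean and SD over 3 arrays (black). For each gene the 3 arrays at 2 h hold the highest mean, and the mean at 8 h lies under that of the control, as in Sqle, which averaged 2279 at 2 h, 1328 at 8 h and 1635 in the control.

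Insig1 and Insig2 encode the proteins that retain SCAP and SREBP in the endoplasmic reticulum, and Insig1 is itself a known SREBP target. Insig1 intensities were 1589, 1496 and 1408 after withdrawal, 2649, 2675 and 2816 at 2 h, 2693, 2076 and 2482 at 4 h, 1596, 1558 and 1571 at 8 h, and 2123, 1850.2 and 1922 in the control. The 2 h arrays lay above the control, the 4 h arrays overlapped both, and the withdrawal and 8 h arrays overlapped each other below the control. Insig1 was 1.81-fold higher at 2 h and 1.61-fold higher at 4 h than after withdrawal (adjusted p = 2.54e-06 and 1.05e-05). Insig2 had 285, 310.5 and 359 after withdrawal, 226, 237 and 232 at 2 h, 204, 247 and 227 at 4 h, 240.2, 269 and 228 at 8 h, and 327, 412 and 281 in the control. After GDNF return its 9 arrays all lay below those of withdrawal and control, and Insig2 was 1.41-fold lower at 4 h than after withdrawal (adjusted p = 0.00692). Its other probe set was at 0.04 in that comparison (adjusted p = 0.74), so the call rests on a single probe set.

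Scap, for the SREBP escort protein, had 891, 996 and 969.5 after withdrawal, 741, 719.7 and 752 at 2 h, 867, 756 and 874 at 4 h, 880.5, 921 and 838 at 8 h, and 912, 798 and 836 in the control. The 2 h arrays lay below all others, and Scap was 1.29-fold lower at 2 h than after withdrawal (adjusted p = 0.0011). Its other probe set was at a log2 change of 0.04 (adjusted p = 0.881), and with the mean of both the call was lost. Srebf2, the gene of SREBP-2, had 1016, 947 and 933 after withdrawal, 983, 967 and 967 at 2 h, 1421, 1069 and 1107 at 4 h, 853, 944 and 940.1 at 8 h, and 1035, 906 and 924 in the control. The 4 h arrays lay above all others, with replicate 1 highest. Srebf1, the gene of SREBP-1, ranged over 470.1 to 659.8 and was not past the F test (adjusted p = 0.212).

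Stard4, a cytosolic sterol carrier gene and known SREBP target, had 377, 359 and 336 after withdrawal, 515, 517 and 524 at 2 h, 512, 482 and 487 at 4 h, 341, 349 and 358 at 8 h, and 393, 395 and 419.5 in the control. Its 2 h and 4 h arrays lay above the control and the withdrawal and 8 h arrays below it, and Stard4 rose 1.45-fold at 2 h (adjusted p = 7.72e-06). Abca1, the cholesterol efflux pump and a known LXR target, had 2186, 2162 and 2074 after withdrawal, 1625, 1459 and 1461 at 2 h, 1377, 1247 and 1239 at 4 h, 1687, 1687 and 1502 at 8 h, and 1903, 1836 and 1875 in the control. The withdrawal arrays lay above all others, the control next, and the 4 h arrays below all others. At 4 h Abca1 averaged 1288 ± 77.5, against 2141 ± 59.1 after withdrawal (SD, n = 3), 1.66-fold lower (log2 change -0.73 ± 0.06, adjusted p = 2.21e-07, limma), and its 3 other tested probe sets fell by 0.47, 0.57 and 0.52 on the log2 scale. Nr1h3, the gene of LXR alpha, had 9.58, 14.6 and 9.29 after withdrawal, 9.58, 9.72 and 9.62 at 2 h, 9.43, 9.52 and 8.82 at 4 h, 9.65, 9.90 and 11.3 at 8 h, and 19.9, 27.3 and 52.4 in the control. It passed the low-value level only through its control arrays, so its call against the control was built in and no fold is given. The counts of lower genes against the control include it.

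Among the fatty acid genes Elovl6, whose enzyme lengthens saturated fatty acids, changed most. Its intensities were 586, 537 and 549.7 after withdrawal, 489, 481 and 511 at 2 h, 486, 521 and 491 at 4 h, 363, 383 and 431 at 8 h, and 951, 846 and 911 in the control. The control arrays lay above all others and the 8 h arrays below all others. Elovl6 averaged 392 ± 35.2 at 8 h, 558 ± 25.8 after withdrawal and 903 ± 53.0 in the control (SD, n = 3). It fell 1.62-fold on withdrawal and was 2.31-fold below the control at 8 h (log2 change -1.20 ± 0.07, adjusted p = 3.02e-08, limma), and its other probe set fell by 0.63 and 1.04 on the log2 scale in the same comparisons. Acaca, the gene of acetyl-CoA carboxylase, the committed step of fatty acid synthesis, had 2323, 2408 and 2327 after withdrawal, 2302, 2250.1 and 2286 at 2 h, 2539.7, 2318 and 2375 at 4 h, 2171, 2159 and 2152 at 8 h, and 2019, 2068 and 2124 in the control. Every control array lay below every array of the other groups, and Acaca was 1.14-fold higher after withdrawal than in the control (adjusted p = 0.00267). For its other probe set that log2 change was 0.13 (adjusted p = 0.375).

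Acly, the ATP-citrate lyase gene that supplies acetyl-CoA to both routes, had 3830.1, 3716 and 3789 after withdrawal, 3598, 3353 and 3426 at 2 h, 3744, 3379 and 3527 at 4 h, 3114, 3212 and 2974 at 8 h, and 3719, 3443 and 3465 in the control. The 8 h arrays lay below all others, 1.22-fold under withdrawal (adjusted p = 0.000336). Acsl3, an acyl-CoA synthetase gene, had 1793, 1752 and 1714 after withdrawal, 1873, 1695 and 1818 at 2 h, 1840.5, 1831 and 1768 at 4 h, 1685, 1621 and 1468 at 8 h, and 1745, 1820.2 and 1768 in the control, with the 8 h arrays again lowest. The fatty acid synthase gene Fasn ranged over only 2327 to 2743, and its log2 change at 2 h was -0.01 with a 95% interval of -0.09 to 0.08. That probe set can read more than 1 transcript of the gene. The other Fasn probe set was called higher at 4 h than in the control, with a log2 change of 0.35 (adjusted p = 0.0225), where the first was at 0.05. The desaturase genes Fads1 and Fads2 ranged over 146 to 203 and 22.0 to 36.2, and Fasn, Fads1 and Fads2 were not past the F test.

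**Figure D3:**
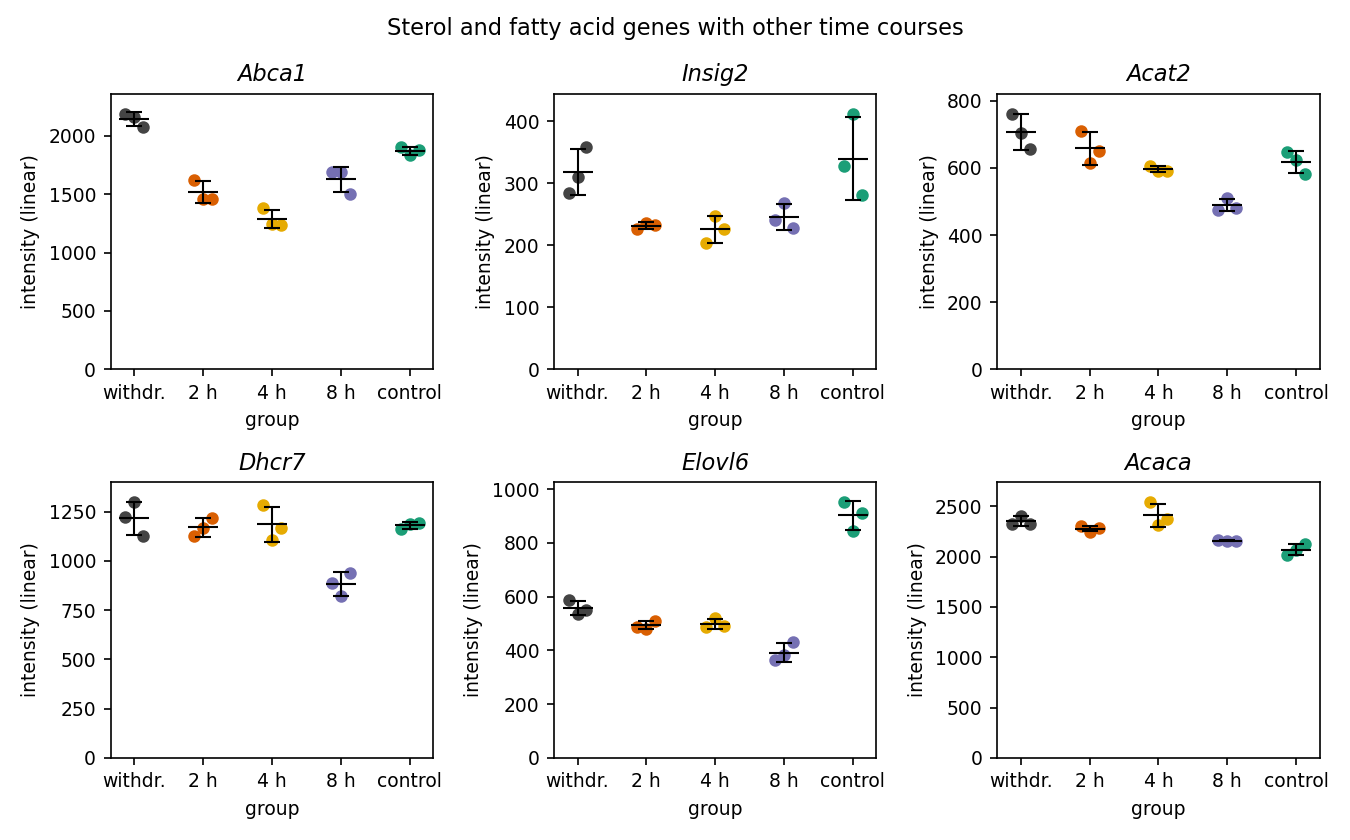
Intensity (linear scale) of 6 genes whose course differed from that of the sterol enzymes, on each array (coloured points), with group mean and SD over 3 arrays (black). Abca1 is lowest at 4 h and highest after withdrawal, Acat2 and Dhcr7 are lowest at 8 h, and the Elovl6 mean at 8 h (392) is under that of the control (903).

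Withdrawal against control asks which of these transcripts depend on GDNF. After 18 h without GDNF 11 of the 32 genes were lower and 3 higher, against 9.67% and 11.4% of all tested probe sets called in these directions (21.1% in either). The lower genes were Elovl6 (1.62-fold), Msmo1 (1.35-fold), Sc5d (1.34-fold), Insig1 (1.31-fold), Ebp (1.30-fold), Idi1 (1.24-fold), Cyp51 (1.24-fold), Ggps1 (1.17-fold), Sqle (1.17-fold), Stard4 (1.13-fold) and Nr1h3. Higher were Acat2 (1.14-fold), Abca1 (1.14-fold) and Acaca (1.14-fold). Squalene to cholesterol genes were lower in 5 of 10 and higher in 0, and fatty acid genes lower in 1 of 7 and higher in 1. The median log2 change of the 32 was -0.06, against 0.01 over all tested probe sets. Without control replicate 3 the called genes numbered 9 rather than 14. Calls were lost for Acat2 without withdrawal replicate 1 or 2 or control replicate 2 or 3 (adjusted p = 0.0869 to 0.189), Abca1 without withdrawal replicate 1 or 2 or control replicate 2 or 3 (adjusted p = 0.0564 to 0.0787), Ebp without withdrawal replicate 3 or control replicate 1 or 3 (adjusted p = 0.0589 to 0.0643), Stard4 without withdrawal replicate 2 or 3 or control replicate 2 or 3 (adjusted p = 0.0546 to 0.13) and Ggps1 without control replicate 3 (adjusted p = 0.0501). The other Ggps1 probe sets had log2 changes of -0.04 and -0.16 (adjusted p = 0.787 and 0.431), and with the mean of all 3, or without multi-target probe sets, the call was lost. The other probe sets of Abca1 had log2 changes of -0.07, 0.19 and -0.06 here, none past the threshold (adjusted p = 0.4, 0.0522 and 0.737). Those of Sc5d were at -0.27 and -0.28, also not past it (adjusted p = 0.139 for each). Of the 12 other tested probe sets of genes called here, 3 had the same call and 0 the opposite call.

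At 2 h of GDNF return 12 of the 32 genes were higher than after withdrawal and 3 were lower, where 11.9% and 14.2% of all tested probe sets were called (26.1% in either direction). All 12 were on the sterol side: Idi1, Sc5d, Msmo1, Insig1 and Sqle by 1.64-fold or more, Cyp51 (1.52-fold), Stard4 (1.45-fold), Hsd17b7, Fdft1, Lss (1.24-fold), Ggps1 (1.15-fold) and Fdps (1.12-fold). Lss encodes lanosterol synthase, which closes the sterol rings. Its other probe set had a log2 change of 0.24, not past the threshold by limma (adjusted p = 0.149). The lower genes were Abca1 (1.41-fold), Insig2 (1.37-fold) and Scap (1.29-fold). Of the 7 fatty acid genes 0 were called in either direction by limma, and 2 had an unadjusted p under 0.05, Acly (adjusted p = 0.0503) and Elovl6 (adjusted p = 0.0643), both with values below withdrawal. The other Elovl6 probe set was called lower at 2 h, by -0.38 on the log2 scale (adjusted p = 0.00894). The median log2 change was 0.02 for the 32 genes and -0.02 over all tested probe sets. The call of Lss was lost without withdrawal replicate 2 or 3 or 2 h replicate 1 or 2 (adjusted p = 0.0551 to 0.091), that of Ggps1 without withdrawal replicate 3 or 2 h replicate 3 (adjusted p = 0.0515 to 0.062) and that of Insig2 without withdrawal replicate 3 (adjusted p = 0.065). With the mesenchymal marker mean as a covariate 10 of the 12 rises were still called, all but Lss and Ggps1, and the call of Insig2 was lost.

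The main risers of the 2 h arrays also stood above the control. At 2 h 11 genes were higher and 6 lower than in the control, against 11.2% and 11.5% of all tested probe sets (22.6% in either direction), with Idi1 1.82-fold, Sc5d 1.5-fold, Msmo1 1.44-fold, Insig1 1.38-fold and Sqle 1.39-fold higher (adjusted p from 8.53e-09 to 0.000523). Hsd17b7 (1.38-fold), Stard4 (1.29-fold), Lss (1.24-fold), Cyp51 (1.22-fold), Fdft1 (1.19-fold) and Acaca (1.10-fold) were the other higher genes, and Nr1h3, Elovl6 (1.83-fold), Ebp (1.49-fold), Insig2 (1.45-fold), Abca1 (1.24-fold) and Scap (1.15-fold) were lower. The calls of Lss without 2 h replicate 1 or 2 or control replicate 1 or 3 (adjusted p = 0.0546 to 0.0983), Scap without 2 h replicate 1, 2 or 3 or control replicate 1 or 3 (adjusted p = 0.0695 to 0.161) and Acaca without 2 h replicate 1 or control replicate 1 (adjusted p = 0.0549 to 0.0562) were lost. With the mesenchymal marker mean as a covariate the 2 h calls of Lss, Scap, Acaca and Insig2 against the control were lost. The other probe sets of Lss, Scap and Acaca had log2 changes of 0.24, -0.08 and 0.06 at 2 h against the control. None was past the threshold by limma (adjusted p = 0.161, 0.773 and 0.694), and with the mean of a gene's probe sets these calls were lost. At 4 h 9 genes were higher and 6 lower, against 11.2% and 10.4% of all tested probe sets (21.6% in either direction). Higher were Srebf2 (1.25-fold), Stard4 (1.23-fold), Insig1 (1.23-fold), Idi1 (1.20-fold), Acaca (1.16-fold), Hsd17b7 (1.16-fold), Msmo1 (1.13-fold), Fdps (1.13-fold) and Cyp51 (1.12-fold). The other Idi1 and Acaca probe sets had log2 changes of 0.12 and 0.20 here, neither past the threshold by limma (adjusted p = 0.41 and 0.152). Sc5d, high at 2 h, stood 1.26-fold below the control at 4 h, together with Nr1h3, Elovl6 (1.81-fold), Ebp (1.59-fold), Insig2 (1.49-fold) and Abca1 (1.45-fold). At 4 h the calls of Srebf2 without 4 h replicate 1 or control replicate 2 or 3 (adjusted p = 0.0585 to 0.0601), Insig1 without 4 h replicate 1 or control replicate 2 (adjusted p = 0.0558 to 0.0705), Hsd17b7 without 4 h replicate 1 or 3 or control replicate 1, 2 or 3 (adjusted p = 0.0557 to 0.133), Msmo1 without 4 h replicate 2 or 3 or control replicate 1 or 3 (adjusted p = 0.0766 to 0.1) and Sc5d without 4 h replicate 2 or control replicate 1 (adjusted p = 0.0505 to 0.0511) were lost. The comparisons with withdrawal and with the control share the 2 h and 4 h arrays. Median log2 changes of the 32 genes were 0.06 at 2 h and 0.06 at 4 h, against 0.00 and 0.01 over all tested probe sets.

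By 4 h 11 of the 32 genes were higher than after withdrawal and 5 lower, against 14.6% and 16% of all tested probe sets (30.6% in either direction). Insig1 (1.61-fold), Msmo1 (1.53-fold), Idi1 (1.5-fold), Cyp51 (1.40-fold), Stard4 (1.38-fold), Ggps1 (1.26-fold), Sqle (1.23-fold), Srebf2 (1.23-fold), Fdps (1.18-fold), Hsd17b7 (1.16-fold) and Fdft1 (1.11-fold) were higher. Abca1 (1.66-fold), Insig2 (1.41-fold), Ebp (1.23-fold), Acat2 (1.18-fold) and Scap (1.15-fold) were lower. Of the 7 fatty acid genes 0 were called by limma at this time, and 1 had an unadjusted p under 0.05, Elovl6 (log2 change -0.16, adjusted p = 0.0855). The median log2 change was 0.09, against -0.01 over all tested probe sets. Calls were lost for Srebf2 without withdrawal replicate 2 or 3 or 4 h replicate 1 (adjusted p = 0.0515 to 0.0605), Fdft1 without withdrawal replicate 2 or 3 or 4 h replicate 3 (adjusted p = 0.0669 to 0.117), Hsd17b7 without withdrawal replicate 3 or 4 h replicate 1 or 3 (adjusted p = 0.104 to 0.157), Ebp without withdrawal replicate 1 or 2 or 4 h replicate 1, 2 or 3 (adjusted p = 0.055 to 0.109), Scap without withdrawal replicate 2 or 3 or 4 h replicate 2 (adjusted p = 0.0968 to 0.166) and Acat2 without withdrawal replicate 1 (adjusted p = 0.0507). The other probe sets of Ggps1 were at 0.10 and -0.00 on the log2 scale (adjusted p = 0.342 and 0.989). Those of Fdft1 and Scap were at 0.02 and -0.05 (adjusted p = 0.854 and 0.852, limma). With the mean of a gene's probe sets the calls of Ggps1, Fdft1 and Scap were lost.

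At 8 h more of the genes were lower than higher. Relative to withdrawal 10 of the 32 were lower and 2 higher, against 15.4% and 9.62% of all tested probe sets (25% in either direction). Lower were Acat2 (1.44-fold), Elovl6 (1.43-fold), Dhcr7 (1.38-fold), Abca1 (1.32-fold), Insig2 (1.29-fold), Mvd (1.29-fold), Acly (1.22-fold), Fdft1 (1.16-fold), Fdps (1.11-fold) and Acaca (1.09-fold). Msmo1 (1.20-fold) and Idi1 (1.10-fold) were higher. Set against 2 h, 16 of the 32 genes were lower at 8 h and only Scap was higher, against 14.4% and 11.8% of all tested probe sets (26.2% in either direction). That drop was 2.07-fold for Idi1, 1.74-fold for Sc5d, 1.72-fold for Sqle, 1.72-fold for Insig1 and 1.63-fold for Msmo1 (adjusted p from 2.51e-09 to 9.89e-06). Squalene to cholesterol genes were lower in 8 of 10 at 8 h than at 2 h, and fatty acid genes in 3 of 7. The median log2 change of the 32 genes was -0.10 from withdrawal and -0.23 from 2 h, against -0.02 and -0.02 over all tested probe sets. Against withdrawal the calls of Idi1 without withdrawal replicate 2 or 3 or 8 h replicate 1, 2 or 3 (adjusted p = 0.0657 to 0.173), Mvd without withdrawal replicate 1 or 2 or 8 h replicate 2 or 3 (adjusted p = 0.0512 to 0.127), Insig2 without withdrawal replicate 2 or 3 or 8 h replicate 1 or 3 (adjusted p = 0.0754 to 0.148) and Acaca without withdrawal replicate 2 or 8 h replicate 1, 2 or 3 (adjusted p = 0.0571 to 0.0974) were lost. Against 2 h those of Acsl3 without 2 h replicate 1 or 3 or 8 h replicate 3 (adjusted p = 0.0601 to 0.0942), Acly without 2 h replicate 1 or 8 h replicate 3 (adjusted p = 0.0833 to 0.0865) and Scap without 8 h replicate 2 (adjusted p = 0.0536) were lost, and the called genes numbered 12 with the mesenchymal marker mean as a covariate, under which Scap and Elovl6 were among the calls lost. The other Scap probe set had a log2 change of -0.10 for 8 h against 2 h (adjusted p = 0.706), and the mean of both lost the call. The other Elovl6 probe set was at -0.03 in that comparison (adjusted p = 0.85).

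After 8 h of GDNF return many of the genes stood below the control. Of the 32, 16 were lower than in the control and 0 higher by limma (0 also at an unadjusted p under 0.05), whereas 7.49% and 4.83% of all tested probe sets were called (12.3% in either direction). Elovl6 (2.31-fold), Ebp (1.53-fold), Insig2 (1.37-fold), Dhcr7 (1.34-fold), Fdft1 (1.27-fold), Acat2 (1.26-fold), Insig1 (1.25-fold), Sqle (1.23-fold), Cyp51 (1.19-fold) and Fdps (1.17-fold) were among the lower, with Abca1 (1.15-fold), Stard4 (1.15-fold), Acly (1.14-fold), Idi1 (1.13-fold), Acsl3 (1.12-fold) and Nr1h3. The lower genes were 13 of 25 on the sterol side and 3 of 7 fatty acid genes. The median log2 change was -0.20, against -0.02 over all tested probe sets. Calls were lost for Acsl3 without 8 h replicate 2 or 3 or control replicate 1, 2 or 3 (adjusted p = 0.0722 to 0.206), Idi1 without 8 h replicate 1 or 3 or control replicate 2 or 3 (adjusted p = 0.0629 to 0.0783), Insig2 without 8 h replicate 1 or 3 or control replicate 1 or 2 (adjusted p = 0.0511 to 0.0947), Abca1 without 8 h replicate 3 or control replicate 1 or 3 (adjusted p = 0.0733 to 0.131), Stard4 without 8 h replicate 1 or 2 or control replicate 3 (adjusted p = 0.0595 to 0.0898), Acly without 8 h replicate 3 or control replicate 1 (adjusted p = 0.054 to 0.0602) and Insig1 without control replicate 1 (adjusted p = 0.0643). The other probe set of Insig2 was at -0.05 on the log2 scale (adjusted p = 0.723) and that of Hsd17b7, a gene not called here, fell by 0.43 (adjusted p = 0.00675). The other Idi1 probe set was at -0.02 (adjusted p = 0.918), and with the mean of both the Idi1 call was lost. For Fdft1 the other probe set was at -0.22 and not past the threshold (adjusted p = 0.0586).

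**Figure D4:**
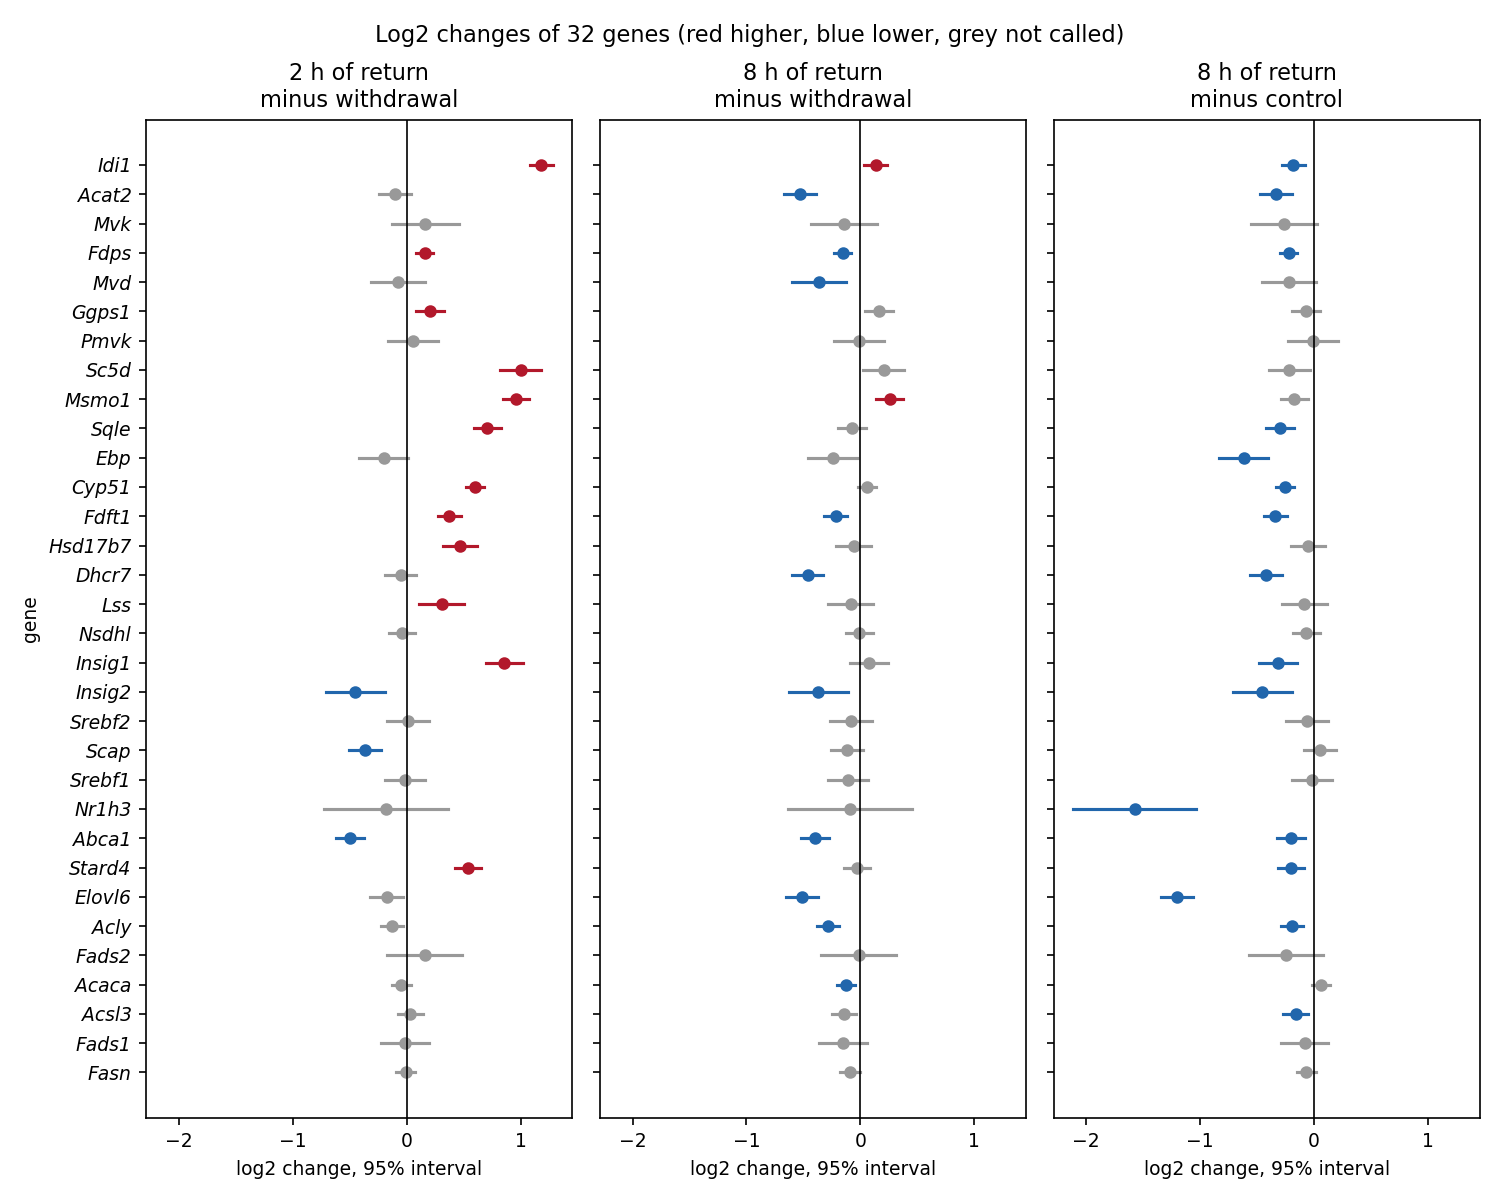
Log2 changes of the 32 genes (points) with 95% intervals from the limma fit, not adjusted for the number of genes (lines), for 2 h against withdrawal, 8 h against withdrawal and 8 h against the control, on 1 scale. Sterol genes such as Idi1 (1.18), Sc5d (1.00) and Msmo1 (0.96) lie to the right at 2 h, and 16 genes are called to the left of the control at 8 h, with Elovl6 at -1.20. Nr1h3 is among them through the low-value level alone and has a wide interval.

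**Figure D5:**
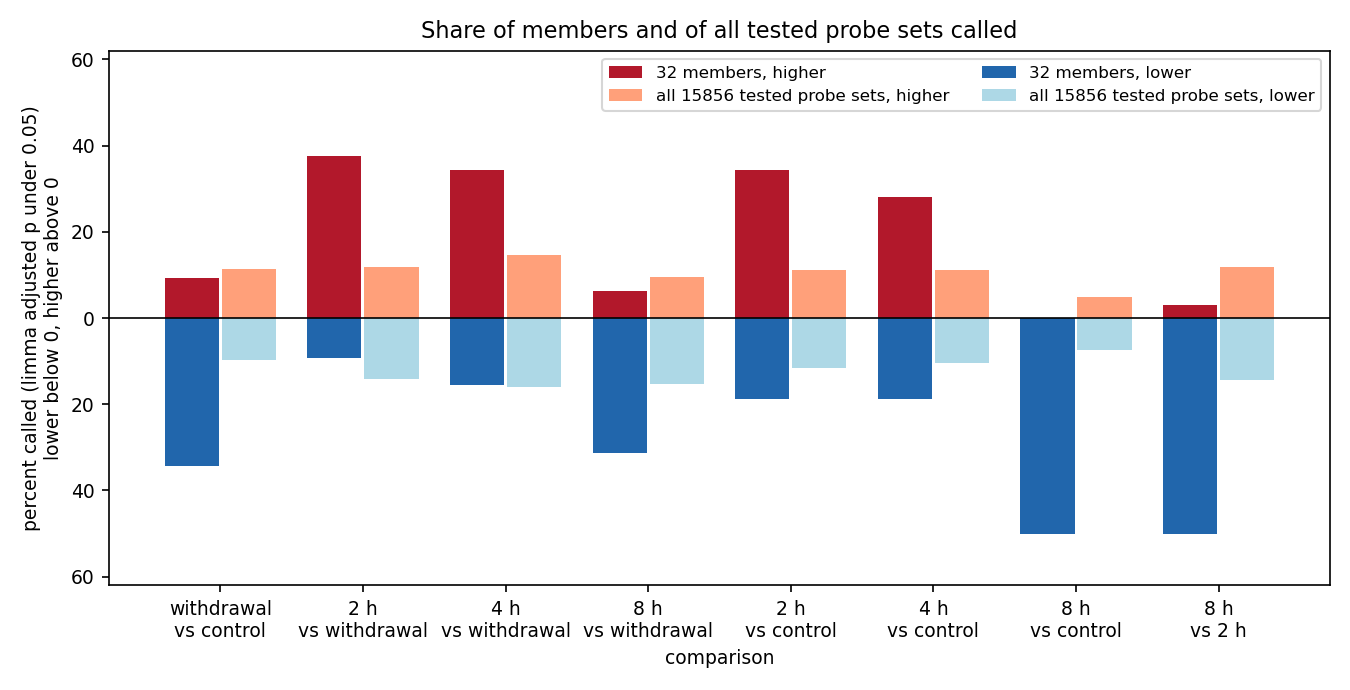
Percent of the 32 genes (dark bars) and of all 15856 tested probe sets (light bars) called higher (upward) or lower (downward) in each of 8 comparisons. The 32 genes reach 37.5% higher at 2 h against withdrawal, where all probe sets are at 11.9%, and 50% lower at 8 h against the control, where all are at 7.49%. Nr1h3, whose lower calls against the control were built in by the low-value level, is counted in the dark bars.

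A second list of 61 lipid genes, outside the 35, gave 44 tested genes. It covers sterol uptake and export, acyl-CoA synthetases, elongases and electron carriers, and its other 17 genes are not analysed here. After withdrawal 6 of the 44 were lower (13.6%) and 2 higher (4.55%), against 9.67% and 11.4% of all tested probe sets. At 2 h 6 were higher and 6 lower than after withdrawal (13.6% each), against 11.9% and 14.2%, so these shares are near the background. At 8 h 7 were lower (15.9%) and 0 higher than in the control, against 7.49% and 4.83%. Relative to withdrawal 10 were lower at 8 h (22.7%) and 2 higher (4.55%), against 15.4% and 9.62%. Set against 2 h, 16 were lower at 8 h (36.4%) and 6 higher (13.6%), against 14.4% and 11.8%. The drop from 2 h to 8 h was thus not particular to the 32 genes. Their median log2 change at 2 h was 0.01, and at 8 h against the control it was -0.09. The genes called in 6 of the 8 comparisons were Acsl4, Elovl5, Abcg1 and Cyb5a. Acsl4, which activates arachidonic acid, had log2 changes from withdrawal of 0.49 (adjusted p = 0.000292) at 2 h and 0.63 (adjusted p = 1.52e-05) at 4 h. Elovl5, an elongase of polyunsaturated fatty acids, was at 0.18 (adjusted p = 0.00441) and 0.35 (adjusted p = 1.28e-05). Abcg1, a sterol exporter and like Abca1 a known LXR target, was at -0.23 (adjusted p = 0.0171) and -0.46 (adjusted p = 8.46e-05). Cyb5a, the cytochrome b5 that passes electrons to desaturases and sterol oxidases, was at -0.73 (adjusted p = 6e-06) and -0.56 (adjusted p = 3.24e-05). The sterol exporters Abca1 and Abcg1 were thus both lower at 2 h and 4 h than after withdrawal, and Acsl4 and Elovl5 were higher.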

How the data were processed

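Labelled RNA of the 15 cultures was read on single-colour arrays. The authors deposited 1 linear intensity per probe set and array. GCRMA and Partek 6.3 are the tools named, per the submitters' processing notes, without saying what each did, and other steps are not stated. Low intensities depend on the background estimate. Between 50.1% and 50.4% of probe sets on an array reached 16. Precision is limited by the 3 arrays per group.

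Values were put on the log2 scale and not normalized again. Of 31099 probe sets, 57 controls were dropped and 15856 were tested, having a log2 intensity of at least 4 (16 on the linear scale) on 3 or more arrays. Each gene is shown by the tested probe set with the highest mean. The platform annotation gave the symbols, updated through RefSeq. Probe sets whose ID ends in a, s or x can read more than 1 transcript and are called multi-target here. Those ending in a, here of Stard4, Ggps1 and Fasn and the other set of Lss, read variants of 1 gene. Those ending in s, here of Cyp51, may also read other genes. Groups followed the sample titles, and limma 3.58.1 in R 4.3.3 (lmFit, eBayes with an intensity trend) compared group means with all 15 arrays in 1 fit. P-values are two-sided and Benjamini-Hochberg adjusted over all tested probe sets in each of 8 comparisons, with a threshold of 0.05, and SE is that of the log2 change. The steps were tested on simulated data.

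The genes, gene lists and tests were chosen with earlier results of these data known. Genes given with all 15 values were, in each role, up to 5 past the F test with the largest range of group means. Alternatives were other filters, a floor at 16, median centring, quantile normalization, no trend, array weights, only the groups compared, other probe set choices, the replicate number or a mesenchymal marker mean in the model, 3 arrays left out together (replicate 1 of withdrawal, 4 h and control), and each array left out in turn. Promoter letters were searched with Python 3.11.15.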

Additional observations from a re-analysis of the deposited data

Results flagged for a closer look

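The change from withdrawal differed between 8 h and 2 h of GDNF return for 17 of the 32 genes, by limma's test of the 8 h against the 2 h arrays (adjusted p under 0.05), against 26.2% of all tested probe sets, and these are singled out for that difference. In 16 the log2 value at 8 h was below that at 2 h, by 8 h minus 2 h differences of Idi1 (-1.05), Sc5d (-0.80), Insig1 (-0.78), Sqle (-0.78), Msmo1 (-0.70), Fdft1 (-0.59), Stard4 (-0.57), Cyp51 (-0.54), Hsd17b7 (-0.53), Acat2 (-0.43), Dhcr7 (-0.41), Lss (-0.39), Elovl6 (-0.34), Fdps (-0.31), Acsl3 (-0.18) and Acly (-0.16). In Scap the difference was 0.25. The other probe sets of Elovl6 and Scap were at -0.03 and -0.10 (adjusted p = 0.85 and 0.706). With the mesenchymal marker mean as a covariate the calls of Elovl6, Scap, Lss, Acly and Acsl3 were lost. Of the 16, Acat2, Dhcr7, Acly, Elovl6 and Acsl3 had no rise called at 2 h against withdrawal, and the others did. Adjusted p ran from 2.51e-09 (Idi1) to 0.0187 (Acsl3). With 3 arrays in each group, single arrays that stand apart were not looked for.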

How the results depend on the processing

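Of 122 called gene changes in the 8 comparisons, 77 were called under every alternative run and 45 were not called under at least 1. The number of genes called stayed within 1.5 times in every comparison and alternative but 1: after withdrawal it was 9 to 14 when single arrays were left out, with 9 without control replicate 3. No called change reversed sign. Ggps1, not called for 8 h against 2 h, was there called higher, at a log2 change of 0.23, when multi-target probe sets were left out, which puts another probe set in its place. Calls lost numbered 21 with only the groups compared in the fit, 17 with the mesenchymal marker mean as a covariate, 16 without the low-value filter, 14 with the mean of a gene's probe sets, 12 without the intensity trend, 12 without 3 arrays together and 7 without multi-target probe sets, and the cause was not tested. The replicate number as a replicate block gave 14 genes called after withdrawal, 16, 16 and 12 at 2, 4 and 8 h against withdrawal, 18, 15 and 17 against the control and 17 for 8 h against 2 h, and ended 1 call, that of Idi1 at 8 h against withdrawal. The titles give same-numbered arrays a shared number and no other link. Correlations of their deviations from group means had medians of 0.0961, -0.000155 and -0.0301 for numbers 1, 2 and 3. They ran from 0.00978 to 0.389, -0.138 to 0.292 and -0.094 to 0.192 in the same order. Over 60 pairs of different numbers and groups they ran from -0.33 to 0.358, with a median of -0.0124. Whether the arrays of number 1 shared a batch was not tested. Of 134 changes with no call, 59 had the other sign under some alternative. Nr1h3 and Fads2 lay near the low-value level, where the background estimate limits what their values show.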
